A study of Saccharomyces cerevisiae with 12 samples.

Results

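The genes described here build ergosterol or regulate its supply in *Saccharomyces cerevisiae*. They were chosen by name, from the enzymes between acetyl-CoA and ergosterol, 2 electron donors, the regulators Upc2 and Ecm22, the sterol-esterifying enzymes and one oxysterol-binding protein. Of the 31 genes listed, 30 had a probe on the array, among 6019 features measured in all. No probe carries the name of *HMG2*, so its mRNA was not analysed here.

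The wild-type strain JN54, which carries auxotrophic alleles of *his3*, *leu2*, *ura3*, *trp1* and *lys2*, was grown to logarithmic phase in YPD medium at 30°C. It was moved to pre-warmed medium at 43°C and kept there 30 or 60 min, and control cells of the same strain were kept at 30°C for the same time. Poly(A) RNA of heat-shocked cells, labelled with Cy5, was compared with that of control cells, labelled with Cy3, on cDNA microarrays, in 3 independent experiments at each time. The deposited values are log ratios of heat-shocked over control. Their base is not stated and they were read as log2, so a value of -1 is taken as a level 2-fold lower than in the control. No experiment exchanged the dyes, so an effect of the dye on a gene and an effect of heat on it cannot be told apart.

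Ergosterol is the main sterol of fungal membranes. Its synthesis begins with the mevalonate pathway, which turns acetyl-CoA into farnesyl diphosphate, a precursor also of dolichol, ubiquinone, haem A and prenylated proteins. Squalene synthase then commits farnesyl diphosphate to sterols, and a chain of enzymes in the endoplasmic reticulum closes the rings, removes methyl groups and moves double bonds. Several of these later steps use molecular oxygen, and many of the genes are activated by Upc2 and Ecm22, zinc cluster factors that respond to low sterol.

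As a check of direction, the heat shock genes *HSP12*, *SSA4* and *HSP26* had ratios above 0 in all 6 arrays, with mean log2 ratios of 4.36, 4.34 and 3.10 after 30 min. The median over all features lay between -0.01 and 0.03 in each array. The median absolute deviation ran from 0.56 to 0.83 after 30 min and from 0.61 to 1.04 after 60 min, and was smallest in experiment 3 at each time. In experiment 3, 2480 features after 30 min and 1997 after 60 min shared their value with another feature, against 162 to 770 in the other arrays. Among the sterol genes, 0 to 5 had such a tied value in an array.

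Most enzymes of the pathway had lower mRNA levels in the mild heat-shocked wild-type than in the control. After 30 min, 12 of the 23 measured enzymes between *ERG10* and *ERG4* fell and 0 rose (limma, Benjamini-Hochberg adjusted p below 0.05 over all features). The 23 include the accessory proteins Erg28 and Erg29. Among the 23 genes, 22 had a mean below 0, the exception being *ERG29*, and 20 were below 0 in all 3 experiments, as were 35.1% of all features. After 60 min, 10 enzymes fell and 0 rose, and 13 were below 0 in all 3 experiments, against 28.2% of all features. At an unadjusted p below 0.05, 0 enzymes were higher after 30 min and 1, *ERG29*, after 60 min, against 18.0% and 21.8% of all features. Over all 30 genes, 13 (43.3%) fell and 1 (3.33%) rose after 30 min, when 15.9% of all features fell and 10.7% rose. After 60 min, 11 (36.7%) fell and 3 (10%) rose, when 18.2% of all features fell and 15.6% rose.

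The median log2 ratio of the 30 genes was -0.64 after 30 min and -0.53 after 60 min. Over all features the medians were -0.01 and 0.01, and the lower quartiles -0.47 and -0.49. Counted by fold alone, 9 of the 30 genes were below 0.5-fold in at least 2 of 3 experiments after 30 min and 6 after 60 min, against 10.2% and 10.5% of all features. The counts for over 2-fold were 1 and 2, against 4.42% and 6.89% of all features. Above 0 in all 3 experiments were 2 of the 30 genes after 30 min and 4 after 60 min, against 34.0% and 27.7% of all features.

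**Figure D1:**
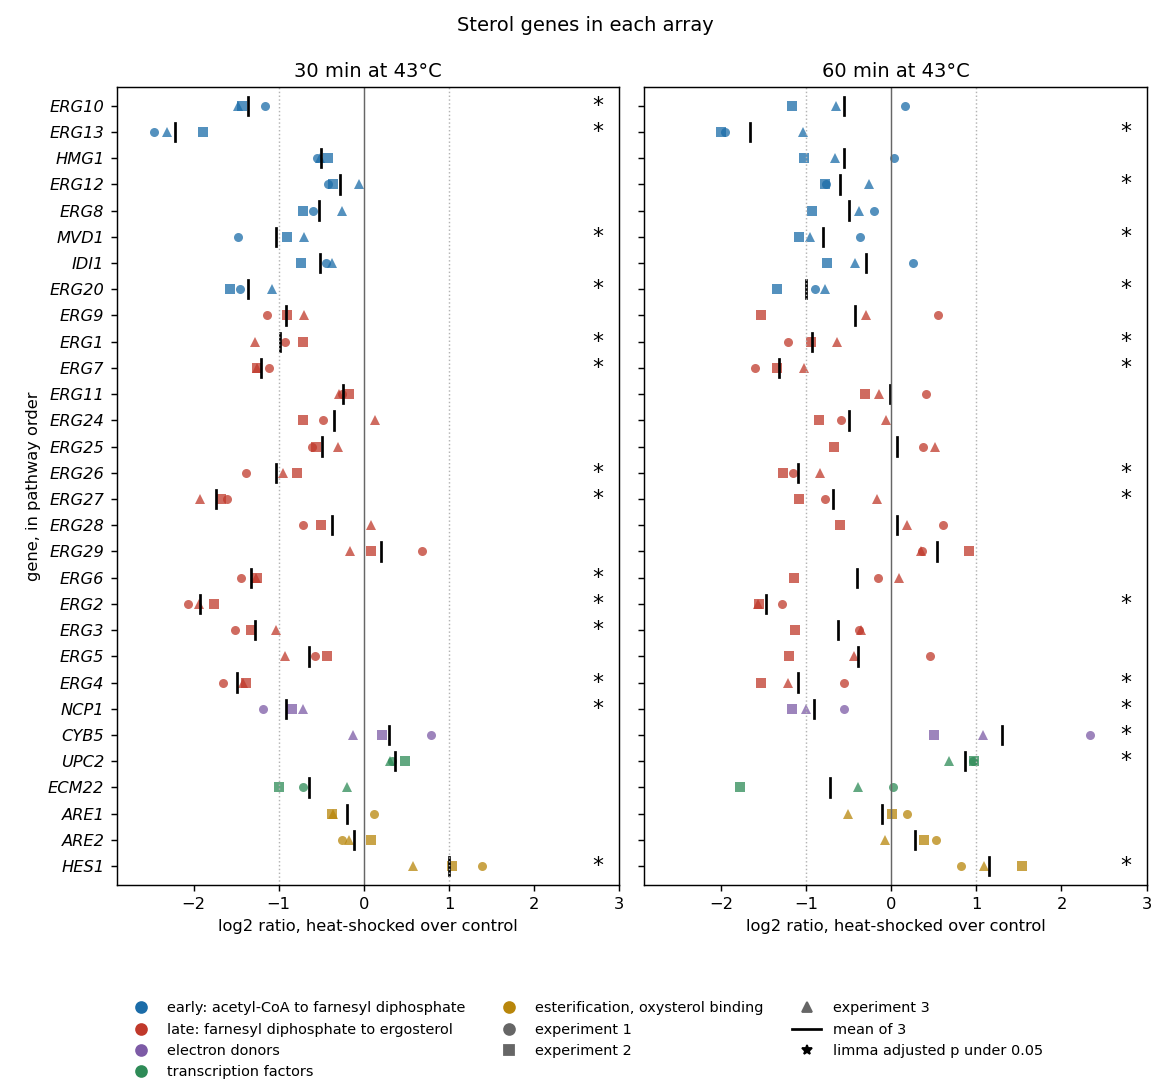
Log2 ratio of heat-shocked over control mRNA for the 30 measured genes, ordered by pathway step, with 1 point for each of 3 experiments after 30 min and 60 min at 43°C and a bar at each mean. The deepest values belong to *ERG13* and *ERG2*, *HES1* and *UPC2* lie above 0 in all 6 arrays, and the points after 60 min are spread more widely than those after 30 min for 23 of the 30 genes.

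The 10 genes that fell at both times were *ERG13*, *MVD1*, *ERG20*, *ERG1*, *ERG7*, *ERG26*, *ERG27*, *ERG2*, *ERG4* and *NCP1*. Of all features, 11.5% did so. *ERG10*, *ERG6* and *ERG3* passed the test after 30 min alone, and *ERG12* after 60 min alone. *HES1* rose at both times, *CYB5* and *UPC2* rose after 60 min alone, and 13 genes passed at neither time. Passing at one time alone does not show that the times differ, which is tested separately further on.

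In the mevalonate pathway, 4 of the 8 measured genes fell at each time, against 15.9% of all features after 30 min and 18.2% after 60 min. *ERG13* (YML126C), which encodes HMG-CoA synthase, had the lowest mean of all 30 genes at both times. Its log2 ratios were -2.46, -1.89 and -2.31 in experiments 1, 2 and 3 after 30 min, and -1.95, -2.0 and -1.04 after 60 min. All 6 arrays were more than 2-fold below the control, and the ranges of the times overlapped. The mean was -2.22 ± 0.30 (SD, n = 3) after 30 min, 4.65-fold lower than the control (adjusted p = 0.000201), and -1.66 ± 0.54 after 60 min, 3.17-fold lower (adjusted p = 0.000615).

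*ERG20* (YJL167W) encodes farnesyl diphosphate synthase, the last enzyme before the sterol branch. It was at -1.45, -1.57 and -1.08 after 30 min and at -0.89, -1.34 and -0.78 after 60 min. Every array was below the control, and experiment 2 was lowest at each time. The means of -1.36 ± 0.26 (adjusted p = 0.00124) and -1.0 ± 0.30 (adjusted p = 0.00528) correspond to levels 2.58-fold and 2.01-fold lower.

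*ERG10* (YPL028W), for the acetoacetyl-CoA thiolase that opens the pathway, was at -1.16, -1.43 and -1.48 after 30 min. After 60 min its arrays scattered from 0.16 in experiment 1 to -1.17 in experiment 2, with -0.65 in experiment 3. It therefore fell 2.57-fold after 30 min (mean -1.36 ± 0.17, adjusted p = 0.00362), while the 60 min mean of -0.55 ± 0.67 did not pass (adjusted p = 0.117). Without experiment 3 of both times the 30 min adjusted p was 0.0543, and over 17 settings it ran from 1.72e-05 to that value. Probes whose identifiers begin with the same 3 digits were read as a print block, that is a patch of spots laid down by 1 pin. This reading was inferred from the identifiers. The block that holds *ERG10* had a median of 0.60 after 60 min, averaged over the 3 arrays. Block medians given for other genes are averaged likewise. After each array was centred on its own block medians, the 60 min value was -1.15 (adjusted p = 0.00336, and 0.00336 to 0.507 over 17 alternative settings).

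*MVD1* (YNR043W), for mevalonate diphosphate decarboxylase, was at -1.48, -0.90 and -0.70 after 30 min and at -0.37, -1.08 and -0.95 after 60 min. All 6 values were below 0, with the lowest in experiment 1 at 30 min and the highest in experiment 1 at 60 min. The means were -1.03 ± 0.41 (adjusted p = 0.0096) and -0.80 ± 0.38 (adjusted p = 0.0236). The 30 min call was lost without experiment 1 (adjusted p = 0.115, the highest over 17 alternative settings, the lowest being 0.000309) and without experiment 2 (0.0624). The 60 min call held in 12 of 17 settings (adjusted p 0.0113 to 0.130).

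*ERG12* (YMR208W), for mevalonate kinase, was at -0.42, -0.36 and -0.06 after 30 min and at -0.77, -0.78 and -0.26 after 60 min. Experiment 3 was nearest to the control at each time. The 30 min mean was -0.28 ± 0.19 (adjusted p = 0.330). It fell by 0.60 ± 0.30 on the log2 scale after 60 min (adjusted p = 0.0453), but in only 8 of 17 alternative settings (adjusted p 0.0402 to 0.187).

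*HMG1* (YML075C) encodes one of the 2 HMG-CoA reductases, the main control point of the pathway. Its ratios lay close together after 30 min, at -0.55, -0.42 and -0.52, and far apart after 60 min, at 0.03, -1.03 and -0.66. The means of -0.50 ± 0.07 and -0.55 ± 0.54 did not pass the test (adjusted p = 0.132 and 0.0904). Phosphomevalonate kinase, *ERG8* (YMR220W), had means of -0.53 ± 0.24 and -0.50 ± 0.38 (adjusted p = 0.0989 and 0.102). Isopentenyl diphosphate isomerase, *IDI1* (YPL117C), had means of -0.52 ± 0.20 and -0.30 ± 0.52 (adjusted p = 0.124 and 0.339). For all 8 genes of this pathway every experiment was below 0 after 30 min.

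At the entry to the sterol branch, the genes for ring closure fell at both times. *ERG7* (YHR072W), for the lanosterol synthase that closes the rings, was at -1.12, -1.25 and -1.26 after 30 min and at -1.60, -1.34 and -1.03 after 60 min. All 6 arrays were more than 2-fold below the control, and the 30 min values lay within the range of the 60 min values. The means of -1.21 ± 0.08 (adjusted p = 0.00197) and -1.32 ± 0.29 (adjusted p = 0.000814) correspond to levels 2.31-fold and 2.50-fold lower.

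*ERG1* (YGR175C), for squalene epoxidase, the enzyme that terbinafine inhibits, was at -0.93, -0.71 and -1.28 after 30 min and at -1.21, -0.94 and -0.64 after 60 min. The 2 sets of values overlapped almost wholly. Its means were -0.98 ± 0.29 (adjusted p = 0.00785) and -0.93 ± 0.29 (adjusted p = 0.00803). The 30 min call was lost in 3 of 17 alternative settings, without experiment 1, without experiment 3 and without experiment 3 of both times (adjusted p = 0.0581, 0.0680 and 0.0818, from 0.000495 upwards over all 17).

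*ERG9* (YHR190W), for squalene synthase, did not pass the test. Its 30 min mean was -0.91 ± 0.22 (adjusted p = 0.0601), and it passed in 6 of 17 alternative settings (adjusted p 0.00118 to 0.267). After 60 min experiment 1 was above the control and experiment 2 far below it, at 0.55 and -1.53, and the mean was -0.43 ± 1.05 (adjusted p = 0.335).

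*ERG11* (YHR007C) encodes lanosterol demethylase, the haem enzyme that azole drugs inhibit and that opens the removal of methyl groups. It stayed near the control in most arrays, at -0.26, -0.18 and -0.29 after 30 min and at 0.41, -0.31 and -0.14 after 60 min. Its means were -0.24 ± 0.06 (adjusted p = 0.408) and -0.01 ± 0.38 (adjusted p = 0.965). Centring on print blocks moved the 30 min value to -0.51, which passed (adjusted p = 0.0461, the lowest over 17 alternative settings, the highest being 0.642). *ERG24* (YNL280C), for the sterol reductase of the next step, had means of -0.35 ± 0.43 and -0.50 ± 0.40 and passed at neither time (adjusted p = 0.288 and 0.129).

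The 5 genes listed for the removal of the remaining pair of methyl groups did not move as one. The dehydrogenase gene *ERG26* and the keto-reductase gene *ERG27* fell at both times, while the oxidase gene *ERG25*, the scaffold gene *ERG28* and *ERG29* passed at neither. *ERG27* (YLR100W) was at -1.61, -1.68 and -1.92 after 30 min and at -0.78, -1.08 and -0.17 after 60 min. Every 60 min array lay above every 30 min array, and all 6 were below 0. The 30 min mean was -1.74 ± 0.16, 3.33-fold lower (adjusted p = 0.000464), and the 60 min mean -0.68 ± 0.47 (adjusted p = 0.0401). The 60 min call held in 9 of 17 alternative settings (adjusted p 0.0210 to 0.204).

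*ERG26* (YGL001C) was at -1.38, -0.78 and -0.95 after 30 min and at -1.15, -1.27 and -0.84 after 60 min, with overlapping ranges. Its means of -1.03 ± 0.31 (adjusted p = 0.00556) and -1.09 ± 0.22 (adjusted p = 0.0034) correspond to levels 2.05-fold and 2.12-fold lower. Without experiment 1 the 30 min call was lost (adjusted p = 0.0768, the highest over 17 settings, the lowest being 0.000298).

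*ERG25* (YGR060W) had means of -0.49 ± 0.17 (adjusted p = 0.165) and 0.07 ± 0.65 (adjusted p = 0.853). *ERG28* (YER044C) had means of -0.38 ± 0.41 and 0.07 ± 0.61 (adjusted p = 0.305 and 0.864). For both, 60 min experiment 2 lay below the control and 60 min experiments 1 and 3 above it. *ERG29* (YMR134W), needed for the same demethylation, had the highest means among the genes from *ERG10* to *ERG4*, 0.20 ± 0.43 and 0.54 ± 0.32 (adjusted p = 0.535 and 0.0964).

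In the last steps, which shift double bonds and build the side chain, 4 of 5 genes fell after 30 min, against 15.9% of all features. *ERG2* (YMR202W), for the sterol isomerase, had the smallest adjusted p of the 30 genes at both times. It was at -2.07, -1.76 and -1.94 after 30 min and at -1.28, -1.55 and -1.57 after 60 min. The arrays of the times did not overlap, and every array was more than 2-fold below the control. The means of -1.93 ± 0.16 (adjusted p = 0.00015) and -1.47 ± 0.16 (adjusted p = 0.00038) correspond to levels 3.80-fold and 2.77-fold lower.

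*ERG4* (YGL012W), for the reductase that yields ergosterol, was at -1.66, -1.39 and -1.42 after 30 min and at -0.55, -1.53 and -1.21 after 60 min. All 6 values were below 0, and 60 min experiment 1 was the nearest to the control. It fell 2.81-fold (mean -1.49 ± 0.15, adjusted p = 0.00117) and 2.14-fold (mean -1.10 ± 0.50, adjusted p = 0.00497). Without experiment 3 of both times the 60 min adjusted p was 0.0525, and over 17 settings it ran from 0.0013 to that value.

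*ERG6* (YML008C), for the methyltransferase that distinguishes fungal sterols from cholesterol, was at -1.44, -1.26 and -1.27 after 30 min and at -0.16, -1.14 and 0.09 after 60 min. All 3 early values lay below all 3 late ones, although 60 min experiment 2 lay close to them. It fell 2.50-fold after 30 min (mean -1.32 ± 0.10, adjusted p = 0.00374), and the 60 min mean was -0.40 ± 0.65 (adjusted p = 0.233). The median of its print block was 0.30 after 60 min, and centred on blocks the 60 min value was -0.70 (adjusted p = 0.0355, the lowest over 17 settings, the highest being 0.919).

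*ERG3* (YLR056W), for a sterol desaturase, was at -1.51, -1.32 and -1.03 after 30 min and at -0.38, -1.13 and -0.35 after 60 min, so that the times overlapped through 60 min experiment 2. It fell 2.43-fold after 30 min (mean -1.28 ± 0.24, adjusted p = 0.00257). The 60 min mean was -0.62 ± 0.44 (adjusted p = 0.0558), and -1.09 after block centring (adjusted p = 0.0103, and 0.0103 to 0.260 over 17 settings), where its block had a median of 0.47. The other desaturase gene, *ERG5* (YMR015C), had means of -0.64 ± 0.26 and -0.39 ± 0.83 and did not pass (adjusted p = 0.119 and 0.316).

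The 2 electron donors of these oxidations differed. *NCP1* (YHR042W), for the reductase that passes electrons to Erg11, was at -1.18, -0.85 and -0.72 after 30 min and at -0.56, -1.17 and -1.0 after 60 min. It was below 0 in all 6 arrays, with means of -0.91 ± 0.24 (adjusted p = 0.0106) and -0.91 ± 0.31 (adjusted p = 0.0087). Its 30 min call was lost in 4 of 17 settings (adjusted p up to 0.111, without experiment 1, and from 0.000322), and its 60 min call without experiment 3 of both times (0.0689, from 0.00432).

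*CYB5* (YNL111C), for cytochrome b5, was at 0.79, 0.21 and -0.13 after 30 min and at 2.34, 0.50 and 1.08 after 60 min. Experiment 1 was highest at each time, and the ranges overlapped. The 30 min mean was 0.29 ± 0.47 (adjusted p = 0.522). It rose 2.47-fold after 60 min (mean 1.30 ± 0.94, adjusted p = 0.0112), and without experiment 3 of both times the adjusted p was 0.0529 (0.00678 to that value over 17 settings).

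Of the 2 sterol regulators, *UPC2* (YDR213W) had higher ratios than *ECM22* in every array. Being paralogues, the 2 genes may share signal on a cDNA array, which was not tested. *UPC2* was at 0.33, 0.48 and 0.31 after 30 min and at 0.96, 0.97 and 0.68 after 60 min. All 6 values were above 0 and the times did not overlap. The 30 min mean was 0.37 ± 0.09 (adjusted p = 0.174), and after 60 min it rose 1.83-fold (mean 0.87 ± 0.17, adjusted p = 0.00693). The median of its print block was 0.03 after 30 min and 0.55 after 60 min. Centred on blocks, the 60 min value was 0.32 and the call was lost (adjusted p = 0.154), the only one of 17 settings to do so (from 0.00683).

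*ECM22* (YLR228C), the paralogue of *UPC2*, was at -0.71, -1.0 and -0.20 after 30 min and at 0.02, -1.78 and -0.39 after 60 min. Experiments 1 and 2 lay on opposite sides of the 30 min range after 60 min. Neither mean passed, at -0.64 ± 0.40 (adjusted p = 0.156) and -0.72 ± 0.94 (adjusted p = 0.104). After block centring the 60 min value was -0.95 (adjusted p = 0.0271, the lowest over 17 settings, the highest being 0.622).

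The sterol acyltransferase genes, whose products store sterol as steryl esters, passed at neither time. *ARE1* (YCR048W) was at 0.12, -0.37 and -0.36 after 30 min and at 0.18, 0.01 and -0.51 after 60 min (means -0.20 ± 0.28 and -0.11 ± 0.36, adjusted p = 0.523 and 0.739). *ARE2* (YNR019W), for the main enzyme in aerobic cells, was at -0.26, 0.08 and -0.18 and then at 0.53, 0.39 and -0.07 (means -0.12 ± 0.18 and 0.28 ± 0.31, adjusted p = 0.689 and 0.319). Both genes had arrays on either side of the control.

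*HES1* (YOR237W), of the oxysterol-binding protein family, was the only one of the 30 genes that rose at both times. It was at 1.39, 1.04 and 0.58 after 30 min and at 0.82, 1.54 and 1.09 after 60 min, above 0 in all 6 arrays and overlapping between the times. The means of 1.00 ± 0.41 (adjusted p = 0.0105) and 1.15 ± 0.36 (adjusted p = 0.00417) correspond to levels 2.00-fold and 2.22-fold higher. The 30 min call was lost without experiment 1 (adjusted p = 0.117, the highest over 17 settings, the lowest being 0.00023) or without experiment 2 (0.0850).

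Early and late steps of the pathway were compared within each array. The early steps were the 8 measured genes from *ERG10* to *ERG20*, and the late steps the 15 from *ERG9* to *ERG4*. After 30 min the early genes averaged -1.07, -1.0 and -0.85 in experiments 1, 2 and 3 and the late genes -0.99, -0.89 and -0.88. The late average minus the early one was 0.08, 0.11 and -0.04, a mean of 0.05 ± 0.08 (SD, n = 3), which is smaller than its spread between experiments. Genes within each section differed far more than the sections did, with an SD between genes of 0.65 for the early and 0.60 for the late steps.

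After 60 min the early genes averaged -0.47, -1.13 and -0.64 and the late genes -0.33, -0.95 and -0.37. The late steps had the higher average in all 3 experiments, by 0.14, 0.19 and 0.27, a mean of 0.20 ± 0.07. With 3 experiments an exact two-sided test on signs cannot fall below 0.25, and none was run. The difference depended on which genes and which average were taken. Without *ERG28* and *ERG29* it was -0.07 after 30 min and 0.07 after 60 min, and with print blocks centred -0.02 and 0.01. In counts, 4 of 8 early and 8 of 15 late genes fell after 30 min, and 4 and 6 after 60 min. Of all features, 15.9% and 18.2% fell.

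**Figure D2:**
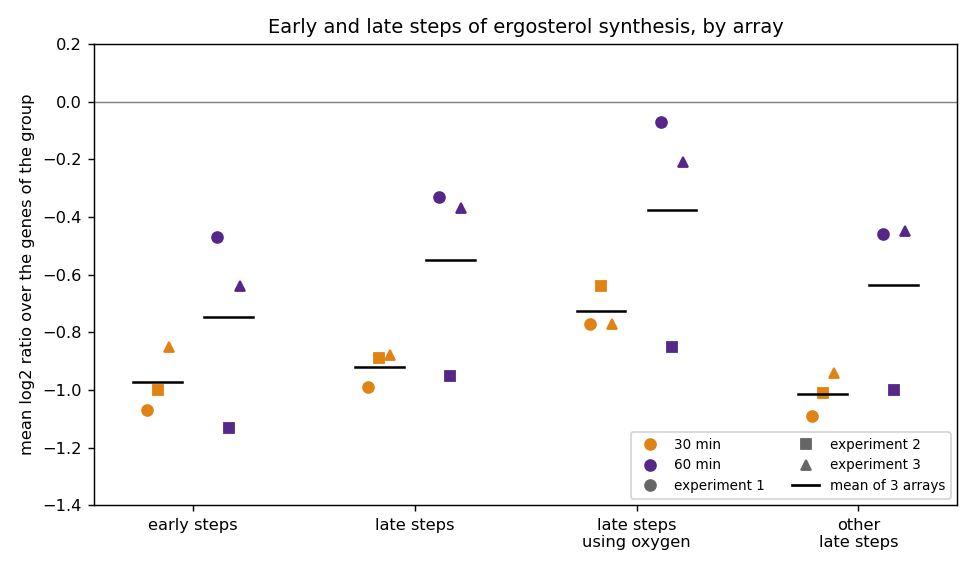
Mean log2 ratio of the 8 early genes (*ERG10* to *ERG20*) and the 15 late genes (*ERG9* to *ERG4*) in each of the 6 arrays. The late genes are also split into the 5 that use oxygen and the other 10. Each array has 1 point, its shape gives the experiment, and a bar marks the mean for each time. Early and late averages lie within 0.11 of each other after 30 min, and the late average is 0.14 to 0.27 above the early one after 60 min.

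Among the late steps, the 5 enzymes that use molecular oxygen (*ERG1*, *ERG11*, *ERG25*, *ERG3* and *ERG5*) averaged higher ratios than the other 10 in every array. The oxygen-using genes averaged -0.73 ± 0.08 after 30 min and -0.38 ± 0.42 after 60 min, and the others -1.02 ± 0.08 and -0.64 ± 0.31. The difference was 0.32, 0.37 and 0.17 after 30 min (mean 0.29 ± 0.10) and 0.39, 0.15 and 0.24 after 60 min (mean 0.26 ± 0.12). By medians the order held in 5 of 6 arrays and turned in 60 min experiment 3, at -0.35 for the oxygen-using genes and -0.23 for the others. The oxygen-using genes did not form a uniform group, since *ERG3* and *ERG1* were at -1.28 and -0.98 after 30 min and *ERG11* at -0.24.

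No gene differed between 60 and 30 min after adjustment, among the 30 or among all 6019 features (limma). Before adjustment, 4 of the 30 genes had p below 0.05 (*ERG10*, *ERG27*, *ERG6* and *CYB5*), against 8.57% of all features. All 4 were higher after 60 min, where 4.2% of all features had such a p and a higher ratio. For *ERG27* the difference was 1.06 on the log2 scale (95% interval 0.36 to 1.77, unadjusted p = 0.00692, adjusted p = 0.483). For *ERG6* it was 0.92 (0.14 to 1.70, unadjusted p = 0.0253), for *ERG10* 0.81 (0.01 to 1.60, unadjusted p = 0.0483) and for *CYB5* 1.01 (0.01 to 2.02, unadjusted p = 0.0491). With print blocks centred, *ERG27* was at 1.14 (unadjusted p = 0.00196), *ERG6* at 0.69 (0.0508), *CYB5* at 0.81 (0.0525) and *ERG10* at 0.43 (0.169), and *ERG20* and *ERG11* had unadjusted p below 0.05. With the arrays scaled to the same median absolute deviation, these 4 genes and *ERG13* and *ERG3* had unadjusted p below 0.05.

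By their means, most of the 30 genes had a higher ratio after 60 min. In 60 min experiments 1 and 3 the median of the genes (-0.07 and -0.39) was above that of every 30 min array (-0.73 to -0.61). In 60 min experiment 2 that median (-1.05) was below all of them. The 60 min mean was above the 30 min mean for 23 genes and below it for 6, and the 2 means of *NCP1* differed by 0.00. Over all features 52.1% were higher after 60 min. The median difference of the 30 genes was 0.30, and 0.24 with print blocks centred. With scaled arrays 27 genes were higher and 2 lower. The 60 min arrays lay wholly above the 30 min arrays for *ERG27*, *ERG6*, *ERG2* and *UPC2*, against 8.69% of all features, and wholly below them for 0 genes, against 7.51%. For *UPC2* the difference of 0.50 (95% interval -0.11 to 1.11) became -0.02 after block centring.

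**Figure D3:**
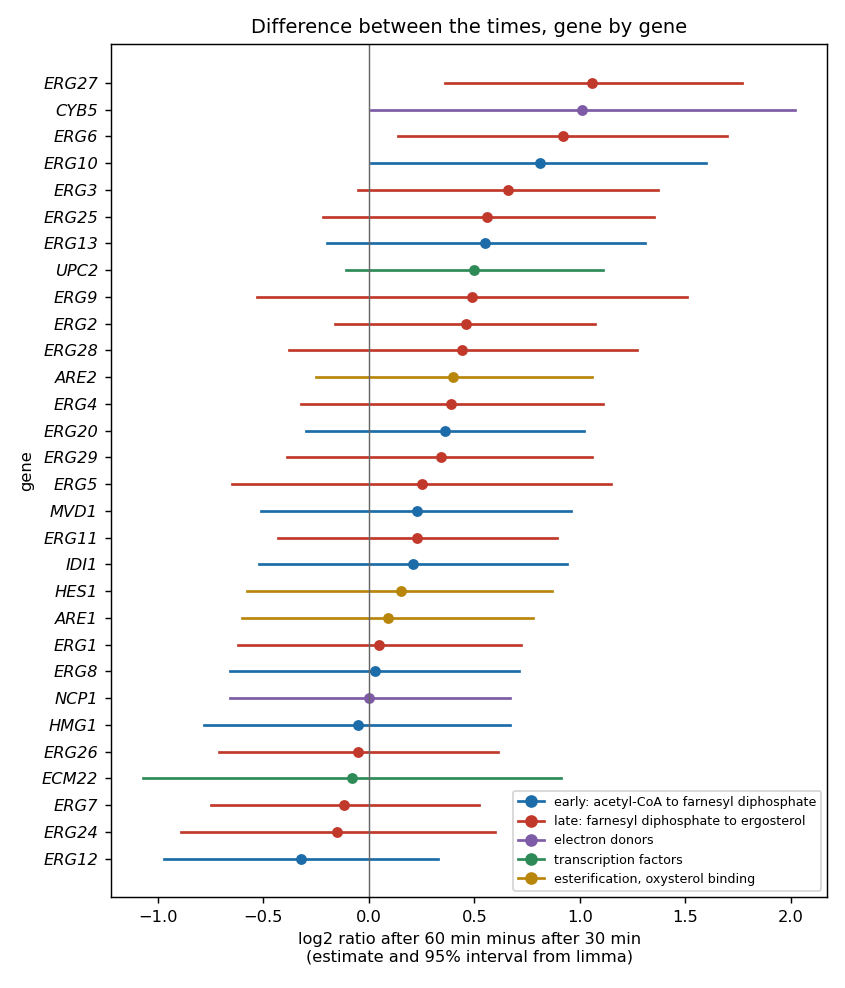
Difference in log2 ratio between 60 and 30 min for each of the 30 genes, with the 95% interval of the linear model. Above 0 lie 23 of the 30 differences, up to 1.06 for *ERG27*, and the intervals of *ERG27*, *ERG6*, *ERG10* and *CYB5* do not include 0.

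The 60 min experiments did not give one value for the set. The median of the 30 genes was -0.07, -1.05 and -0.39 in experiments 1, 2 and 3, against -0.71, -0.73 and -0.61 after 30 min. Below the control were 15, 24 and 23 of the 30 genes after 60 min, and 25, 25 and 26 after 30 min. Of the 60 min arrays, experiment 2 was lowest for 22 of the 30 genes (37.8% of all features) and experiment 1 highest for 16 (39.6%). The range of 3 experiments was wider after 60 min for 23 of the 30 genes, as it was for 72.4% of all features. Averaged over the 3 arrays of a time, medians of the print blocks holding these genes ran from -0.37 to 0.26 after 30 min. After 60 min they ran from -0.33 to 0.60. In single arrays they ran from -0.52 to 0.45 after 30 min and from -0.58 to 0.91 after 60 min. The part of the print blocks in each gene's ratio was not tested beyond the centred values given above.

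**Figure D4:**
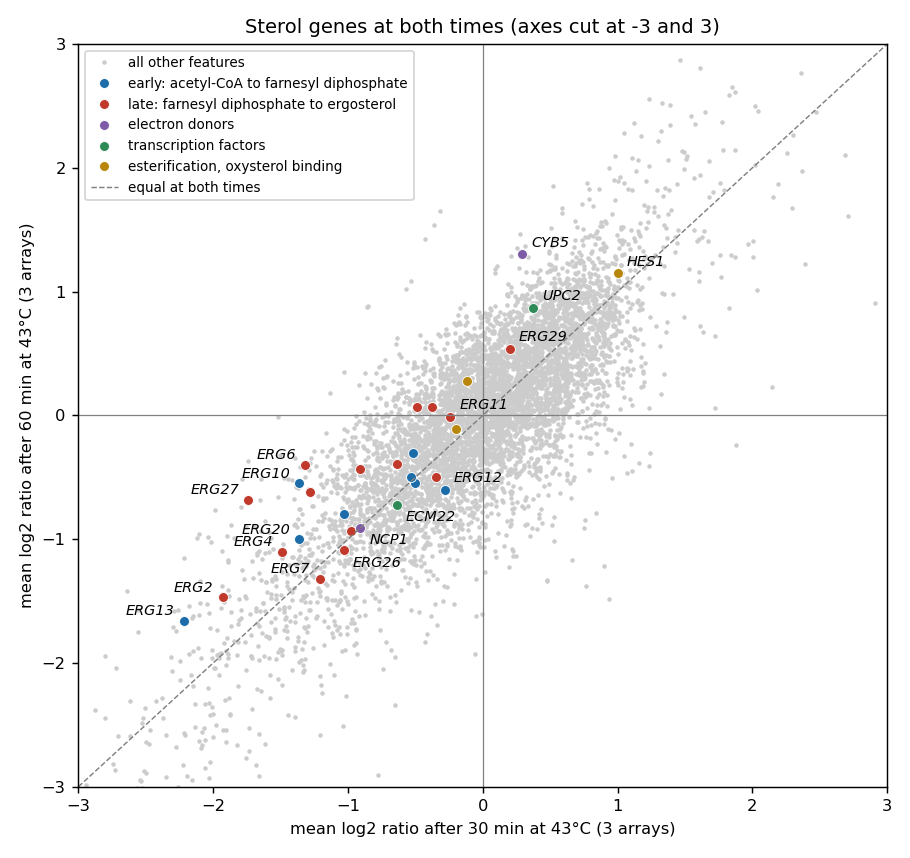
Mean log2 ratio after 60 min against that after 30 min for all 6019 features in grey, 58 of them outside the plotted range of -3 to 3, and for the 30 sterol genes in colour by role. Most enzymes lie below 0 at both times, led by *ERG13* at -2.22 and -1.66, while *HES1*, *UPC2*, *CYB5* and *ERG29* lie above 0 at both.

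Over both times, 13 of the 30 genes were below 0 in all 6 arrays, against 21.4% of all features. They were *ERG13*, *ERG12*, *ERG8*, *MVD1*, *ERG20*, *ERG1*, *ERG7*, *ERG26*, *ERG27*, *ERG2*, *ERG3*, *ERG4* and *NCP1*. *UPC2* and *HES1* were above 0 in all 6, against 18.8% of all features.

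Genes around the pathway were counted from lists of related functions. Of all features, 15.9% fell and 10.7% rose after 30 min, and 18.2% fell and 15.6% rose after 60 min. Of 13 genes of isoprenoid side branches, *SRT1* and *BET4* rose after 30 min and *BET2* fell, while after 60 min *SRT1* rose and *COX10* and *BET2* fell. In shares of this list, 7.69% fell and 15.4% rose after 30 min, and 15.4% fell and 7.69% rose after 60 min. *COX10*, which joins a farnesyl group to haem, was at -0.02 ± 0.38 after 30 min (adjusted p = 0.955) and fell by 1.06 ± 0.37 after 60 min (adjusted p = 0.00606). *SRT1*, a dolichol synthase gene, rose at both times (0.79 ± 0.30, adjusted p = 0.0384, and 0.97 ± 0.59, adjusted p = 0.0135). Of 5 protein prenyltransferase genes on the list, *BET2* fell at both times (-0.79 ± 0.34 and -0.87 ± 0.56, adjusted p = 0.0399 and 0.0218). *BET4*, which encodes the other subunit of the same transferase, rose after 30 min (0.76 ± 0.44, adjusted p = 0.0348), and *RAM1*, *RAM2* and *CDC43* passed at neither time.

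Of 18 measured genes of sterol transport and uptake, 3 (16.7%) fell after 30 min and 5 (27.8%) after 60 min, and 1 (5.56%) and 2 (11.1%) rose. Of all features, 15.9% and 18.2% fell, and 10.7% and 15.6% rose. The deepest fall was that of *PRY2*, for a secreted sterol-binding protein. It was at -2.70, -2.46 and -2.43 after 30 min and at -1.87, -3.05 and -2.54 after 60 min (means -2.53 ± 0.15 and -2.49 ± 0.59, adjusted p = 0.000104 and 6.15e-05). *KES1*, of the same family as *HES1* but moving the other way, fell to -1.23 ± 0.43 and -1.17 ± 0.47 (adjusted p = 0.00522 and 0.0053). *OSH7*, another member of that family, was at -0.75 ± 0.19 and -1.34 ± 0.26 (adjusted p = 0.0213 and 0.000808). *SIP3*, for a protein of membrane contact sites, fell after 60 min (-0.94 ± 0.51, adjusted p = 0.0105). The rises were those of *LAM6* after 30 min and of the sterol importer genes *AUS1* and *PDR11* after 60 min.

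Of 5 genes for steryl ester hydrolysis and sterol acetylation, *TGL1* fell at both times (-0.77 ± 0.37 and -0.69 ± 0.17, adjusted p = 0.0231 and 0.0309). The share of this list that fell was 20.0% at each time, against 15.9% and 18.2% of all features. The share that rose was 0% and 20.0%, against 10.7% and 15.6%. *YEH1*, another steryl ester hydrolase gene, was at 0.54 ± 0.35 after 30 min (adjusted p = 0.142) and rose after 60 min (1.27 ± 0.63, adjusted p = 0.00447). Of 9 other transcription factors of sterol and hypoxic genes, the corepressor genes *TUP1* and *CYC8* fell after 60 min, by 1.45 ± 0.33 and 0.79 ± 0.18 (adjusted p = 0.000989 and 0.0124). *TUP1* fell after 30 min too, by 1.31 ± 0.42 (adjusted p = 0.00249), when *SUT2* rose by 0.84 ± 0.21 (adjusted p = 0.0265). In shares of these 9 genes, 11.1% fell and 11.1% rose after 30 min, and 22.2% fell and 0% rose after 60 min.

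Of 11 genes for degradation of HMG-CoA reductase and for sterol sensing, 2 (18.2%) rose after 30 min and 4 (36.4%) after 60 min. At each time 1 (9.09%) fell. Of all features, 10.7% and 15.6% rose, and 15.9% and 18.2% fell. *NSG1*, whose product protects Hmg2 from degradation, fell at both times (-1.08 ± 0.16 and -1.74 ± 0.21, adjusted p = 0.00342 and 0.000163). The ubiquitin ligase gene *HRD1* rose (0.83 ± 0.02 and 1.39 ± 0.78, adjusted p = 0.0439 and 0.00343), as did *DER1*, of the same degradation system (1.07 ± 0.36 and 0.83 ± 0.48, adjusted p = 0.00907 and 0.0227). *DAP1*, for a haem-binding partner of Erg11, rose after 60 min (0.84 ± 0.14, adjusted p = 0.0119).

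Haem synthesis supplies the cofactor of Erg11, Erg5 and cytochrome b5. Of 8 genes of this synthesis, 3 (37.5%) fell after 30 min and 5 (62.5%) after 60 min, against 15.9% and 18.2% of all features. By limma 0 rose, against 10.7% and 15.6% of all features. At an unadjusted p below 0.05, 0 and 1 rose, against 18.0% and 21.8% of all features. *HEM12* fell most (-1.35 ± 0.45 and -1.49 ± 0.29, adjusted p = 0.00211 and 0.000861), followed by *HEM2* (-0.98 ± 0.31 and -1.16 ± 0.16, adjusted p = 0.00654 and 0.00209). *HEM1*, for the first enzyme, fell by 0.88 ± 0.25 and 0.58 ± 0.13 (adjusted p = 0.00992 and 0.0463). *HEM13*, for an oxygen-using step, was at -0.27 ± 0.37 after 30 min (adjusted p = 0.353) and fell after 60 min (-0.69 ± 0.10, adjusted p = 0.0295). The lists were read against the shares of all features given above, and no test was made of any list as a whole.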

How the data were processed

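Heat-shocked and control RNA were compared on 6 arrays, 3 for each time. Per the labels and methods, the authors read every array with 2 laser powers, quantified spots with GenePix, and normalized the Cy5/Cy3 ratio on negative control spots with Chip Cleanser. The deposited log ratios, read here as log2, are identical in both scans of an array (0 values differ), so each array was counted once. Their base is not stated. Read as log2, 266 features were over 2-fold up and 613 down after 30 min, against 844 and 1022 as natural logarithms and 1971 and 1979 as log10, and this reading was chosen with the values in view. Among these readings, log2 gave the counts nearest to the numbers of up- and down-regulated genes that the paper reports. Of 6912 probes 6162 had values. The 203 probes in 78 groups with identical values were counted once a group, and distinct probes of a gene were averaged, giving 6019 features.

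Mean ratios were tested against 0, and the times against each other, in 1 linear model with limma 3.58.1 in R 4.3.3, with p-values adjusted by Benjamini and Hochberg over all features at 0.05. The fold rule, after the study's methods, was over 2-fold or below 0.5-fold in at least 2 of 3 experiments. The model was tested on simulated data. Values in every array are given for each sterol gene that passed and for *ERG11*, *HMG1*, *UPC2*, *ECM22*, *ARE1*, *ARE2* and *HES1*. Of a related list at most 4 passing genes are given with values. Genes and lists were chosen with earlier results of these data known. The experiments are described as independent, separate cultures are not stated, and p-values measure the spread between these arrays, whose number limits the precision. The array's genome build was not given in the sources used here, so no positions are printed. The intensities behind the ratios were not used.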

Additional observations from a re-analysis of the deposited data

How the results depend on the processing

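Limits are set by 3 arrays for each time, 1 dye orientation, an unstated log base and print blocks, inferred from probe identifiers, whose medians differ. No intensities were used, so signal over background is unknown. The pairs *UPC2* and *ECM22*, *ARE1* and *ARE2*, and *HMG1* and *HMG2* may share signal on a cDNA array, which was not tested. Of 1020 values of the 30 genes under alternatives, 927 kept direction and side of the threshold, 39 lost the call, 40 gained it and 14 changed sign, 0 of them called. The count of genes that fell after 30 min, 13, was 21 with array weights, 20 with each time fitted alone, and 9 to 15 with 1 array left out. The count that rose, 1, was 2 with array weights and 0 to 1 with 1 array left out. After 60 min, 11 fell, and 8 did with each time fitted alone. The count was 7 once experiment 3 was dropped at both times (a setting chosen after seeing the data). It was 6 if the mean also had to exceed 2-fold, and 8 to 15 with 1 array left out. The 3 that rose remained 3 with any 1 array left out and were 2 with print blocks centred, without experiment 3 of both times, and if the mean also had to exceed 2-fold. By the fold rule, the 1 up after 30 min and the 2 up after 60 min became 0 with print blocks centred or if all 3 experiments had to pass, and 0 to 1 at each time with 1 array left out. The 6 down after 60 min became 3 if all 3 experiments had to pass and 3 to 5 with 1 array left out, and 3 without experiment 2 of 60 min. With 1 array left out, the fold rule still asked for 2 experiments, so both remaining ones had to pass. Those counts could therefore only stay equal or drop. The 9 down after 30 min remained 9 if all 3 had to pass. The number differing between the times was 0 in every setting.

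Late minus early steps, 0.05 after 30 min, became -0.02 with print blocks centred, -0.18 with medians in place of means, -0.07 without *ERG28* and *ERG29*, and 0.02 to 0.10 with 1 array left out. The 60 min value, 0.20, became 0.01, 0.06 and 0.07 in the same settings, 0.32 with the late steps counted from *ERG11*, and 0.16 to 0.23 with 1 array left out. Print block centring moved *ARE2* at 30 min to 0.09 and *ERG11* at 60 min to 0.05. With 1 array left out, *ERG29* at 30 min ran from -0.04 (without experiment 1) to 0.38. The other sign changes were at 60 min. Without 60 min experiment 1 *ERG25* was at -0.08 and *ERG28* at -0.20, and without experiment 2 *ERG9* was at 0.13, *ERG11* at 0.14 and *ERG5* at 0.01. Without 60 min experiment 3, and without experiment 3 of both times, *ERG11* was at 0.05, *ERG25* at -0.15 and *ARE1* at 0.09. With 1 array left out, the highest or lowest values on the other side were -0.92 for *ERG9*, -0.23 for *ERG11*, 0.44 for *ERG25*, 0.40 for *ERG28*, -0.82 for *ERG5* and -0.25 for *ARE1*. The causes were not tested.

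With the experiment number as a replicate block (consensus correlation 0.135), 13 genes fell and 1 rose after 30 min, 11 fell and 3 rose after 60 min, and 0 differed between the times, the same counts as without it. The numbers were read as names and not as pairs. Deviations from the mean of a time correlated at -0.0425, 0.125 and 0.353 for experiments 1, 2 and 3, and 30 min experiment 1 correlated best with 60 min experiment 2 (0.186). The value of experiment 3 was the highest of all such correlations, and its arrays had the smallest spread and the most tied values at each time. A link between the arrays numbered 3 was not tested.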
